A study of Drosophila melanogaster with 54 samples.

Results

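The comparison is between female Drosophila melanogaster embryos late in development (stage 15, St15) and female embryos at gastrulation (stage 7, St7), all of them controls of a study that lowered the acetyltransferase gene mof by RNA interference. Its 9 libraries, of 54 in the series, are the control libraries labelled female at these stages. The St15 group has 3 libraries (replicates 2, 3 and 4), each a pool of 25 embryos aged 14 to 16 h. The St7 group has 6 libraries (replicates 1 to 6), each from 1 embryo. Embryos of both groups were progeny of mothers with the mat-a-tub Gal4 driver and a control RNA interference stock, mated to their siblings (Bloomington stocks 7062 and 36304), kept at 25 °C. The driver is a maternal one, active in the female germline. St15 embryos also carried Sxl-GFP, a marker that shows in females, and were sorted as GFP positive, while the sex of St7 embryos was assigned by the submitters after sequencing from msl-2, Sxl, tra and tra2. Stage, pooling, the Sxl-GFP background, the way of sexing and the deposited table therefore differ together and cannot be told apart. Only large changes are called, and nothing in the labels says that the St15 pools came from separate crosses.

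At gastrulation the fly embryo is a single cell sheet that has just been divided into segments and germ layers. The mesoderm folds in, RNA stored by the mother is being cleared, and the zygote's own genome has recently become active. Late in embryogenesis the organs differentiate: muscles become contractile, neurons form synapses, the gut and salivary glands mature, and the epidermis and the tracheal airways secrete a chitin cuticle. Most cell divisions have ended by then.

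PolyA RNA was counted per gene, and levels are given as CPM (the gene's counts scaled to the same total in every library). Totals were 19018190 to 20965145 counts per library at St15 and 7772523 to 9560631 at St7. The 12 Y-linked genes of the list together had 0 to 1 count in each St15 female library and 0 to 3 in each St7 female library, against 149 to 209 in St15 control males and 17 to 59 in St7 control males. Markers of differentiated tissue were high at St15 (Mhc of muscle, nSyb of synapses, vkg of basement membrane, verm of trachea), while ftz, prd, eve and twi, which mark segments and mesoderm at gastrulation, were high at St7. Other markers of the same set separated the stages less. elav, sna, rho and sog were not called under the rule given below, and fkh, fog and T48 overlapped between the groups. Hml, a marker of blood cells, was near 0 at both stages, with 0.523 CPM at St15 and 2.504 CPM at St7. Of the St15 pools, replicate 3 held the most RNA of early genes, as given with the genes that fell.

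The tables of the stages differ in the level of antisense RNA genes. Genes named as antisense RNAs took 0.0225 to 0.0243% of counts in the St15 females and 1.07 to 1.19% in the St7 females. Control males, counted in the same tables, showed the same split. The antisense gene asRNA:CR45778 had 0, 0 and 0.0517 CPM in the St15 libraries and 698 to 867 CPM in the St7 libraries. dUTPase, the gene of nucleotide metabolism on the opposite strand there, had 13.8, 18.1 and 11.2 CPM at St15 and 691 to 882 CPM at St7, so that at St7 both genes stood at nearly the same level. Over 208 antisense genes beside a partner of at least 1 CPM at both stages, the median antisense level was 0.180% of the partner's at St15 and 29.2% at St7, with the higher share at St7 in 202 of the 208 pairs. Whether the strand was used in counting is not stated in the sources used here, and its part in the stage change of overlapping genes was not tested. A gene is called free of overlap below if no exon of another gene, on either strand, covers any of its exonic bases. Counts of calls over all genes tested, and over some of the lists, are given with and without the other genes.

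**Figure D1:**
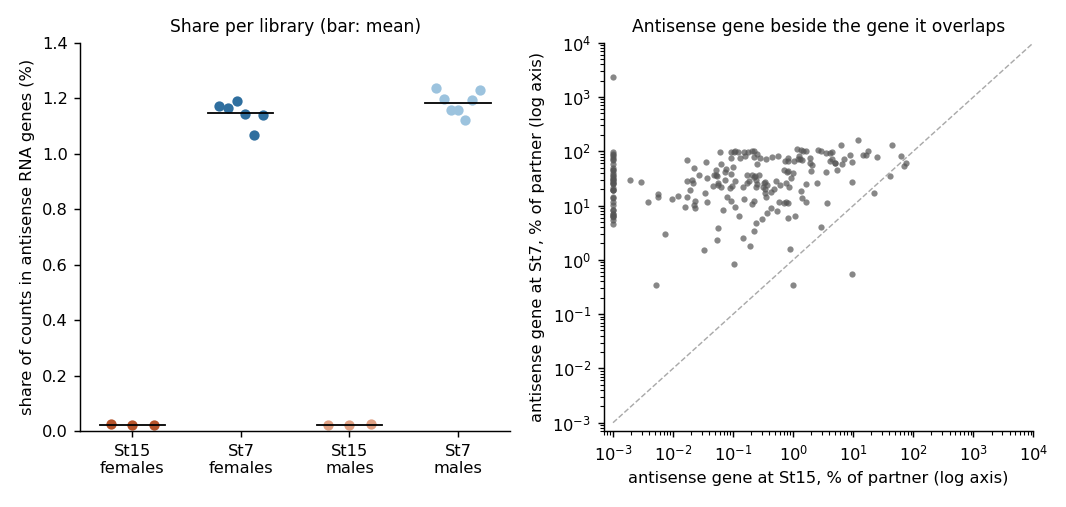
Left, share of counts in antisense RNA genes (%) for each library, by group, with a bar at the mean. Right, each of 208 antisense genes as a percentage of the gene it overlaps, at St15 (horizontal log axis) and at St7 (vertical log axis), with values under 0.001% drawn at the edge and the dashed line marking equal shares. The St15 libraries lie at 0.0225 to 0.0243% in females against 1.07 to 1.19% at St7, and 202 pairs lie above the line.

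The St15 and St7 females differed in a large part of the transcriptome. Of 10511 genes tested, 2958 were called higher and 1314 lower at St15, where a call asks for an adjusted p under 0.05 (edgeR's quasi-likelihood test, Benjamini-Hochberg) and a change of at least 8-fold. Together this is 40.6% of the genes tested, 28.1% higher and 12.5% lower. At the adjusted p alone, 5147 genes were higher and 4382 lower. The libraries of the groups did not overlap in 4253 of the 4272 genes called, and in 89.03% of all genes tested. Among 6063 tested genes free of overlap, 2176 (35.9%) were called higher and 579 (9.55%) lower, 45.4% in all, while 224 of 287 antisense RNA genes were called lower and 6 higher. The median log2 fold change was 0.26 over all genes tested and 0.99 over those free of overlap. Fitted fold changes include TMM scaling, which puts them 0.33 above the log2 ratio of the plain CPM values. With library size as the only scaling, the median over all genes tested was -0.07. A gene with at most 3 counts in all in 1 group could be tested only through its counts in the other group. In every list below, the call of such a gene adds no support of its own.

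**Figure D2:**
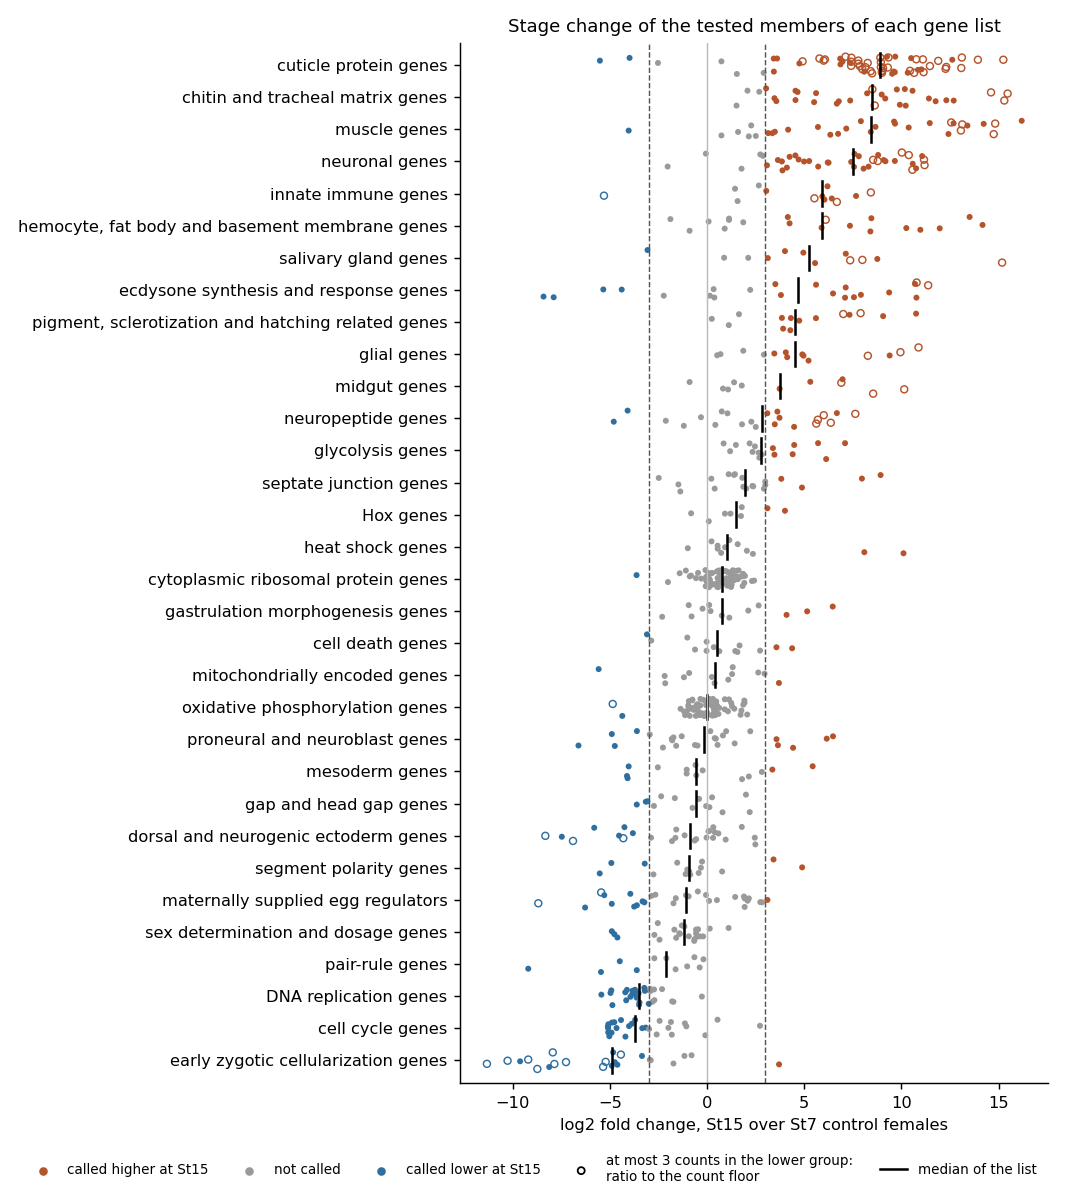
Log2 fold change (St15 over St7 control females, horizontal axis) of every tested member of 32 gene lists, 1 list a row. Points are genes, coloured by call, hollow points are genes with at most 3 counts in the lower group placed at their ratio to the count floor, black bars are list medians and dashed lines mark 8-fold. The rows run from cuticle protein genes (median 8.92) to early zygotic cellularization genes (median -4.91).

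The cuticle and the matrix on the outer face of the epidermis and trachea gave the highest medians of tested members among the lists described. In whole embryos, more cells of a type and more RNA per cell cannot be told apart, here and in all that follows. Osiris genes, which encode a family of insect transmembrane proteins made by cuticle-forming cells, number 22 in the table, all on chromosome 3R. Together they had 19964 to 21514 CPM in the St15 libraries and 0.464 to 1.54 CPM in the St7 libraries. All 17 that could be tested were called higher, where 28.1% of all genes tested were. No Osiris gene exceeded 0.837 CPM at St7, so a member could enter the test only through its St15 counts. The count of 17 therefore adds no support of its own. Osi6 (dm6 chromosome 3R, 6234708 to 6237181) had 8328, 8542 and 8196 CPM at St15, while 5 of the 6 St7 embryos had 0 and the other 0.114 CPM. Osi7 (dm6 chromosome 3R, 6248994 to 6251683) had 6230.0, 5926 and 5951 CPM at St15 and no count in any St7 embryo, which makes it at least 104794-fold higher at St15, with a floor of 3 counts over the group. The St15 pools were close to each other in both genes.

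Genes that build or modify chitin moved with them. verm and serp encode chitin deacetylases of the tracheal tube. verm had 1789, 1894 and 1839.6 CPM in the St15 libraries against 0 in all St7 libraries (at least 31962-fold higher), and serp had 881, 916 and 906 CPM at St15 against 0 to 0.901 CPM at St7. kkv, the chitin synthase, was already detected at gastrulation: it had 507, 466 and 471 CPM at St15 and 4.799, 5.91 and 6.98 CPM as lowest, median and highest at St7, a log2 fold change of 6.68 ± 0.11 (SE; adjusted p = 9.63e-14, edgeR). Gasp, a chitin-binding protein of the airway wall, averaged 1371 ± 208 CPM at St15 and 3.43 ± 2.62 CPM at St7 (SD, n = 3 and 6). dyl, which encodes a zona pellucida domain protein of the apical matrix, averaged 1146 CPM at St15 and 0.0193 CPM at St7, where a single read was counted in all 6 embryos. Of 31 tested members of the chitin and tracheal matrix list (32 in all), 28 were called higher and none lower, with a median log2 change of 8.51. Over all genes tested, 28.1% were called higher and 12.5% lower. Of the 25 free of overlap, 23 were called higher. In 5 of the 31, a group had at most 3 counts in all, so these entered the test only through the other group.

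Structural cuticle proteins followed. Of 125 cuticle protein genes, 62 had too few counts to be tested. Of the 63 tested, 57 were called higher and 2 lower, against 28.1% and 12.5% of all genes tested. The 2 are Cpr60D and Twdlalpha, which shares exonic bases with other genes. The median log2 change was 8.92 when genes at the floor are set to it. In 38 of the 63, a group had at most 3 counts in all, so these entered the test only through the other group. The count and the median therefore describe tested members only. TwdlF, of the Tweedle family of cuticle proteins, had 1266, 2339 and 1728 CPM in the St15 pools and 0 in all St7 embryos (at least 30865-fold higher). Replicate 3 was the highest and replicate 2 the lowest of the pools, apart by more than in verm. TwdlD had 543, 803 and 807 CPM at St15 and at most 0.314 CPM at St7. Summed over the list, the St15 libraries held 5188 to 8731 CPM and the St7 libraries 41.0 to 48.6 CPM.

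Muscle genes had the next highest median, at 8.42. Mhc, which encodes the heavy chain of muscle myosin (dm6 chromosome 2L, 16766566 to 16788766), had 7135, 7496 and 7927 CPM at St15 and 0.120, 0.447 and 0.800 CPM (lowest, median, highest) at St7. That is a log2 fold change of 14.24 ± 0.19 (adjusted p = 2.92e-14, edgeR). Tm2, a tropomyosin, averaged 1329 ± 102 CPM at St15 and 0.0185 CPM at St7, and Mlc1, a myosin light chain, 1262 ± 82.2 CPM at St15 and 0.0190 CPM at St7, each with 1 count over the 6 St7 embryos. TpnC47D, a troponin C, had 383, 439 and 410.5 CPM in the St15 libraries and none in the St7 libraries. The larval muscle actin Act57B, whose exons overlap another gene's, reached 10953 ± 623 CPM at St15 against 0.176 ± 0.0725 CPM at St7. 25 of 31 list members were called higher, and only tin, a heart and mesoderm regulator that is high early, was called lower. Over all genes tested, 28.1% were called higher and 12.5% lower. In 5 of the 31, a group had at most 3 counts in all, so these entered the test only through the other group. Mef2, a transcription factor of muscle that is already on in the early mesoderm, did not reach 8-fold, with 211, 195 and 217 CPM at St15 and 46.6 to 73.1 CPM at St7 (log2 fold change 2.15 ± 0.12, adjusted p = 2.71e-09, edgeR).

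In the nervous system many genes of synaptic transmission were near 0 at St7 and at moderate levels at St15. VGlut, the vesicular glutamate transporter of motor neurons, had 97.4, 103 and 115 CPM at St15 and 1 count in all at St7, and nAChRbeta1, a subunit of the acetylcholine receptor, had 106, 107 and 109 CPM at St15 and also 1 count at St7. VGlut shares a few exonic bases with CG18641. nSyb, the neuronal synaptobrevin, had 215, 218 and 232 CPM in the St15 libraries and 0, 0.585 and 0.837 CPM as lowest, median and highest in the St7 libraries (log2 fold change 9.09 ± 0.23, adjusted p = 1.5e-12, edgeR). The groups were far apart in all of these. brp, of the presynaptic active zone, varied among St7 embryos, with 0.812 to 11.1 CPM, and had 258, 272 and 284 CPM at St15. elav, an RNA-binding protein used as a neuron marker, had 294, 218 and 275 CPM at St15 against 85.5 to 113 CPM at St7 and was not called (log2 fold change 1.77 ± 0.12), and elav shares exonic bases with arg. Of 38 neuronal genes, 33 were called higher and none lower, against 28.1% and 12.5% of all genes tested. The median log2 change was 7.49. Of the 27 free of overlap, 25 were called higher. In 7 of the 38, a group had at most 3 counts in all, so these entered the test only through the other group.

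Glial genes were called higher in 10 of 14 cases, against 28.1% of all genes tested, with a median log2 change of 4.51. In 3 of the 14, a group had at most 3 counts in all. wrapper, of midline glia, had 47.1, 43.7 and 44.9 CPM at St15 and none at St7 (at least 785-fold higher), and alrm, a marker of astrocyte-like glia, had 86.3, 91.02 and 87.4 CPM at St15 against 0 to 0.717 CPM at St7. repo, the transcription factor of most glia, had 30.9, 26.97 and 30.4 CPM at St15 and 1.49 to 3.09 CPM at St7, and overlaps CG7156. Apart from Ilp4, the neuropeptide genes of the list stayed low at both stages. Of 22 tested, 11 were called higher and 2 lower, against 28.1% and 12.5% of all genes tested. The list, which leaves out the peptide hormone gene CCHa2 described below, summed to 163 to 173 CPM at St15 and 237 to 299 CPM at St7. Ilp4, an insulin-like peptide gene of the early mesoderm, made up most of the St7 sum, with 9.82 ± 1.67 CPM at St15 and 211 ± 22.7 CPM at St7 (SD).

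Basement membrane genes rose to high levels. Col4a1 and vkg, which encode the collagen IV chains, lie next to each other on chromosome 2L. Col4a1 had 2665, 2974 and 3318 CPM at St15 and 0, 0.117 and 0.464 CPM (lowest, median, highest) at St7, and vkg had 1794, 2007 and 2185 CPM at St15 and 0.232, 0.539 and 1.196 CPM at St7. In both genes the St15 pools had the same order, with replicate 4 highest. Ppn (papilin) averaged 2776 ± 80.7 CPM at St15 and 0.295 ± 0.334 CPM at St7, and the laminin chain gene LanA 2821 ± 127 CPM at St15 and 10.2 ± 2.34 CPM at St7. PPO2, a prophenoloxidase of crystal cells, averaged 264 CPM at St15 and 0.154 CPM at St7. Of 19 genes of hemocytes, fat body and basement membrane, 12 were called higher and none lower, against 28.1% and 12.5% of all genes tested. Hml did not follow, and the larval serum protein genes of the list were at or below 1.05 CPM at both stages.

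In the epithelia, septate junction genes gave fewer calls: 4 of 20 were higher (Fas3, cora, Atpalpha and vari) and none lower. This is no more than the 28.1% and 12.5% of all genes tested that were called higher and lower. Fas3, an adhesion molecule of lateral membranes, averaged 951 ± 73.5 CPM at St15 and 2.43 ± 0.665 CPM at St7. cora, the junction's band 4.1 protein, averaged 1068 ± 94.1 CPM at St15 and 5.35 ± 0.996 CPM at St7. Lac, which encodes an immunoglobulin-type junction protein, went the other way without reaching 8-fold, with 306, 287 and 278 CPM at St15 and 1955 to 2238 CPM at St7 (log2 fold change -2.49 ± 0.08, adjusted p = 1.86e-11, edgeR). Of the tested members, 17 were higher and 3 lower at the adjusted p alone, so the list moved unequally.

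Midgut and salivary gland genes were mostly of modest level. GATAe, a transcription factor of the midgut endoderm, had 171, 173 and 165 CPM at St15 and 1.14 to 9.98 CPM at St7, and mex1, a midgut marker, averaged 69.8 ± 1.33 CPM at St15 and 0.683 ± 0.278 CPM at St7. 6 of 11 tested midgut genes were called higher, against 28.1% of all genes tested. Of all 20 in the list, 9 had too few counts, most of them digestive protease genes. Of 12 salivary gland genes, 9 were called higher and 1 lower (hkb, also a gap gene), against 28.1% and 12.5% of all genes tested. nur had 1546, 1906 and 1655 CPM at St15 and none at St7 (at least 29553-fold higher). fkh, the gland's forkhead factor, which the early embryo also uses at its ends, overlapped between the groups, with 126, 112 and 116 CPM at St15 and 63.7 to 114 CPM at St7. slbo, a C/EBP-type transcription factor, had 607, 770.2 and 672 CPM in the St15 libraries and 0 in all 6 St7 libraries.

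Ecdysone is the steroid hormone of molting, and its genes gave calls in both directions. Of 22 tested, 13 were called higher and 4 lower, against 28.1% and 12.5% of all genes tested. Of the 10 free of overlap, 8 were called higher and none lower, so that all 4 falls lie in genes that share exonic bases. Those that rose were nuclear receptors and hormone-induced genes, along with Cyp18a1, which inactivates the hormone. ImpL1, an ecdysone-induced gene, had 1032, 761 and 737 CPM at St15 and 0.333 to 0.837 CPM at St7, and the nuclear receptor gene ftz-f1 had 540.3, 681 and 722 CPM at St15 against 0.129 to 0.837 CPM at St7. Hr3, another receptor of the cascade, had 156, 94.6 and 114 CPM at St15 and 1 count in all at St7. The falls were in 4 genes of hormone synthesis. spo, a cytochrome P450 of the pathway, had 0.0477, 1.84 and 0.103 CPM at St15 and 255, 287 and 299 CPM (lowest, median, highest) at St7. dib, another P450, had 0.477, 1.52 and 0.569 CPM at St15 and 231 to 274 CPM at St7, and sro and sad fell as well. spo, dib, sro, sad, Hr3 and ftz-f1 share exonic bases with other genes. In both P450 genes replicate 3 was the highest of the St15 pools. Without it the log2 fold change was -11.36 for spo and -8.57 for dib, against -8.42 and -7.90 with it.

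Every glycolysis gene tested was higher at St15, though only part of them passed 8-fold. All 16 tested had an adjusted p under 0.05 and a positive change, and 7 were called higher, against 28.1% of all genes tested. Ldh, lactate dehydrogenase, had 448, 455 and 393 CPM at St15 and 1.67, 3.17 and 6.17 CPM (lowest, median, highest) at St7 (log2 fold change 7.10 ± 0.27, adjusted p = 1.47e-10, edgeR). Tpi, triose phosphate isomerase, averaged 179 ± 10.1 CPM at St15 and 3.204 ± 1.48 CPM at St7, and Gapdh2 450.2 ± 2.66 CPM at St15 and 25.2 ± 6.91 CPM at St7. Ecdysone and glycolysis lists both hold Ldh. Among genes of pigment and cuticle tanning 11 of 14 were called higher, against 28.1% of all genes tested. They were led by ple, tyrosine hydroxylase, with 158, 197 and 166 CPM at St15 and at most 0.314 CPM at St7. The pigment genes v and y, which are also common strain markers, were called higher in the St15 embryos, whose background differs: v averaged 35.8 CPM at St15 and 0.0365 CPM at St7, while y had 6.201, 7.62 and 17.6 CPM at St15 and 0 to 1.57 CPM at St7. Replicate 4 was the highest pool in y, and the log2 fold change was 4.28 with it and 3.68 without it.

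Of 13 tested innate immune genes (30 in all), 9 were called higher and 1 lower, against 28.1% and 12.5% of all genes tested. Those that rose were 4 genes of the Toll pathway (Tl, spz, dl and nec), 3 peptidoglycan recognition genes and the immune peptide genes BomS1 and BomS2. Of the 9 tested that are free of overlap, 6 were called higher and 1 lower. Tl, the Toll receptor gene, was near the limit at log2 3.04, with 2.96 without the St15 replicate 2, 2.98 without the St7 replicate 2 and also 2.98 without the St7 replicate 4, and 2.71 with library size as the only scaling. dl, the NF-kappaB factor that also patterns the early embryo from maternal RNA, had 138, 145 and 141 CPM at St15 and 0.239 to 1.600 CPM at St7, and the receptor PGRP-LC averaged 50.3 ± 6.22 CPM at St15 and 0.735 ± 0.462 CPM at St7. The peptide genes were low: BomS2 averaged 4.68 ± 0.614 CPM at St15 and was at 0 at St7, and AttB was at 0 at St15 and averaged 2.53 ± 0.530 CPM at St7. Of 12 heat shock genes, 2 were called higher, l(2)efl and Hsp67Bc, against 28.1% of all genes tested. l(2)efl, a small heat shock protein gene that overlaps St3, had 105, 124 and 104 CPM at St15 and 0 to 0.464 CPM at St7.

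Among the genes that fell, those free of overlap were led by genes of the early zygotic list. In term (dm6 chromosome 3L, 18592303 to 18593771) no count was found in any St15 pool, while the St7 embryos had 36.7, 65.3 and 127 CPM (lowest, median, highest), which makes it at least 1557-fold lower at St15. CG14427 had 1 count in all at St15 and 129.6 to 209 CPM at St7. halo, which directs the movement of lipid droplets in the early embryo, had 0, 0.315 and 0.103 CPM at St15 and 39.00 to 65.7 CPM at St7 (log2 fold change -8.13, with -7.53 and -9.40 without the St15 replicates 2 and 3). CG13427, a gene of unknown function, stood at 3.48, 5.26 and 2.79 CPM in the St15 pools against 1729, 1869.9 and 2119 CPM in the St7 embryos, and per length it was the third highest protein-coding gene at St7, at 4309 CPM per kb of exon against 8.74 at St15. Of 23 tested early zygotic genes, 17 were called lower and 1 higher, with a median log2 change of -4.91, where 12.5% of genes tested were called lower. In 10 of the 23, a group had at most 3 counts in all, so these entered the test only through the other group. The count and the median therefore describe tested members only. The cellularization genes nullo, bnk and Sry-alpha averaged under 1 CPM at both stages and were not tested.

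Other genes with steep falls had levels near 1000 CPM at gastrulation. CG4440 had 1.29, 8.098 and 0.931 CPM at St15 and 912 to 1316 CPM at St7, Sr-CII, a scavenger receptor gene, had 0.811, 8.78 and 0.465 CPM at St15 and 909.6 to 1119 CPM at St7, and Septin5 had 1.91, 4.68 and 1.71 CPM at St15 and 705 to 895 CPM at St7. In each the St15 replicate 3 was the highest pool and still far below every St7 embryo. Without that pool the log2 fold change was -9.63 for CG4440 and -10.23 for Sr-CII, against -8.05 and -7.91 with it. Over the 579 genes free of overlap that were called lower, replicate 3 had the highest CPM of the 3 pools in 290 (50.1%), replicate 2 in 197 and replicate 4 in 92, with ties counted for the lower number. Summed over these genes the pools held 3617, 4239 and 3307 CPM (replicates 2, 3 and 4). Without replicate 3 the calls over all genes were 3000 higher and 1342 lower.

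Segmentation genes fell unequally. Of 11 pair-rule genes, which divide the embryo into double-segment stripes, 4 were called lower and 7 were not called. Over all genes tested, 12.5% were called lower. Of the 9 free of overlap, 2 were called lower. ftz (dm6 chromosome 3R, 6864324 to 6866244) had 0.429, 0.631 and 0.207 CPM at St15 and 201, 301 and 442 CPM (lowest, median, highest) at St7, a log2 fold change of -9.21 ± 0.46 (adjusted p = 3.39e-09, edgeR). prd averaged 1.94 ± 0.376 CPM at St15 and 108 ± 38.1 CPM at St7, and eve 4.76 ± 0.796 CPM at St15 and 135 ± 68.7 CPM at St7, but hry, the hairy gene, averaged 55.4 ± 5.400 CPM at St15 and 79.5 ± 9.38 CPM at St7. Both prd and eve share exonic bases with other genes. slp1 was the fourth member called lower, and it is also in the gap list. Among 14 gap and head gap genes, 3 were called lower (slp1, gt and hkb), against 12.5% of all genes tested. So few calls say little about the list as a whole. hkb, at log2 -3.07, was under 8-fold without the St15 replicate 4 (-2.94) or the St7 replicate 1 (-2.98). Kr had 43.5, 44.1 and 42.9 CPM at St15 and 223 to 353 CPM at St7 and missed 8-fold (log2 fold change -2.37 ± 0.17).

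Segment polarity genes hold segment borders through later development, and 10 of 15 were not called. The paired-box neighbours on chromosome 2R moved in opposite directions. gsb had 5.96, 7.204 and 6.05 CPM at St15 and 226 to 296 CPM at St7 (log2 fold change -4.93 ± 0.13, adjusted p = 2.25e-12, edgeR), whereas gsb-n averaged 11.1 ± 0.436 CPM at St15 and 0.465 ± 0.450 CPM at St7 (log2 fold change 4.89 ± 0.50, adjusted p = 9.68e-07, edgeR). A similar pair is found in en and inv, neighbours of the homeobox class that mark the back of each segment: en averaged 30.00 ± 2.68 CPM at St15 and 109.5 ± 24.3 CPM at St7 and was not called, while inv averaged 27.2 ± 0.353 CPM at St15 and 3.21 ± 1.26 CPM at St7 and was called higher.

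Of the 8 Hox genes, which give segments their identity, 2 were called, both higher. This is near the 28.1% of all genes tested that were called higher. Scr, of the labial and first thoracic segments, had 59.1, 53.2 and 59.7 CPM at St15 and 2.74, 3.97 and 7.21 CPM (lowest, median, highest) at St7, and pb had 13.5, 12.04 and 11.7 CPM at St15 and 0.343 to 4.37 CPM at St7. The call of pb (log2 fold change 3.10) rested on single libraries: it was 2.98, 2.97 and 2.89 without the St7 replicates 1, 2 and 4, and 2.77 with library size as the only scaling. abd-A had 216, 177 and 199 CPM at St15 and 55.4 to 88.3 CPM at St7 (log2 fold change 1.74 ± 0.13), and Abd-B and lab were also above the St7 range without reaching 8-fold. Antp, which overlaps CG46458, lay below the St7 range, with 121, 112 and 121 CPM at St15 against 221 to 305 CPM at St7. Dfd overlapped between the groups, and 2 of the St7 embryos stood apart at 5.11 and 8.23 CPM.

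Of 26 dorsal and neurogenic ectoderm genes, 8 were called lower and none higher, against 12.5% and 28.1% of all genes tested. Among those not called were rho, sog and dpp. At the adjusted p alone 15 were lower and 5 higher. tsg, a secreted modulator of BMP signals, had no count at St15 and 13.5, 20.7 and 27.7 CPM (lowest, median, highest) at St7 (at least 405-fold lower), and zen, a homeobox gene of the amnioserosa, averaged 0.0701 ± 0.121 CPM at St15, all of it in replicate 3, and 17.1 ± 4.43 CPM at St7. The log2 fold change of zen was -10.49 without that pool and -7.48 with it.

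Mesoderm genes gave calls in both directions, with 2 of 14 higher (bap and how) and 3 lower (twi, tin and Ilp4). Over all genes tested 28.1% were called higher and 12.5% lower, and so few calls say little about the list as a whole. bap, a homeobox gene of the gut muscle, averaged 10.2 ± 1.16 CPM at St15 and 0.284 ± 0.196 CPM at St7 (log2 fold change 5.43 ± 0.32, adjusted p = 3.63e-09, edgeR). how, an RNA-binding protein of muscle and tendon cells, had 613, 529 and 592 CPM at St15 and 63.2 to 75.8 CPM at St7 (log2 fold change 3.36 ± 0.09, adjusted p = 2.09e-12, edgeR). twi, which shares exonic bases with other genes, averaged 12.7 ± 0.956 CPM at St15 and 279 ± 27.4 CPM at St7 and tin 5.19 ± 2.16 CPM at St15 and 107 ± 7.57 CPM at St7. sna missed 8-fold, with 34.4, 33.9 and 30.6 CPM at St15 and 213 to 267 CPM at St7. The genes that trigger apical constriction at gastrulation overlapped between the groups in CPM: fog had 83.7, 81.1 and 84.03 CPM at St15 and 79.3 to 108 CPM at St7, and T48, which overlaps Ets97D, had 30.8, 26.1 and 35.7 CPM at St15 and 32.1 to 42.7 CPM at St7. Of 13 genes of gastrulation movements, 3 were called higher (Cad96Ca, smog and Abl), near the 28.1% of all genes tested, and none lower.

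Proneural and neuroblast genes gave calls in both directions. The proneural genes ac, sc and l(1)sc, which select neural precursors, were called lower, with mean levels of 0.504, 1.25 and 1.83 CPM at St15 and 62.3, 47.6 and 62.1 CPM at St7. The St15 replicate 3 was the highest pool in all 3, and without it the log2 fold change was -7.56 for ac and -5.64 for l(1)sc, against -6.62 and -4.75 with it. D, the Sox gene Dichaete, had 43.8, 45.9 and 43.7 CPM at St15 and 634 to 763 CPM at St7. wor and nerfin-1, zinc finger genes of neuroblasts and new neurons, were called higher, with means of 18.4 and 82.1 CPM at St15 and 0.249 and 8.38 CPM at St7. Over the 26 genes of the list 5 were called higher, 4 lower and 17 not called. Of all genes tested, 28.1% were called higher and 12.5% lower, so calls in both directions are not particular to this list.

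DNA replication and cell cycle genes fell together. Every one of the 29 tested replication genes had an adjusted p under 0.05 and a negative change, and 20 were called lower, against 12.5% of genes tested. Of the 19 free of overlap, 12 were called. Caf1-105, a subunit of the chromatin assembly factor, averaged 10.1 ± 1.51 CPM at St15 and 399.6 ± 54.4 CPM at St7. PCNA, the sliding clamp of the replication fork, had 38.5, 49.2 and 39.9 CPM at St15 and 934, 985 and 1051 CPM (lowest, median, highest) at St7 (log2 fold change -4.21 ± 0.11, adjusted p = 1.28e-12, edgeR). Mcm2, of the replicative helicase, had 23.04, 32.8 and 21.9 CPM at St15 and 503 to 659.8 CPM at St7. In both, replicate 3 was the highest St15 pool.

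Of 27 cell cycle genes, 16 were called lower and none higher, against 12.5% and 28.1% of all genes tested. The median log2 change was -3.71. Of the 17 free of overlap, 10 were called lower. polo, a mitotic kinase, had 21.1, 45.7 and 17.5 CPM at St15 and 1179, 1196 and 1248 CPM (lowest, median, highest) at St7 (log2 fold change -5.09 ± 0.30, adjusted p = 2.27e-08, edgeR). Cdk1, the kinase that starts mitosis, averaged 11.6 ± 2.74 CPM at St15 and 497 ± 29.9 CPM at St7. stg, the Cdc25 phosphatase that times the divisions after cellularization, had 71.2, 66.3 and 66.1 CPM at St15 and 679 to 1028 CPM at St7. borr, a subunit of the chromosomal passenger complex, had 6.82, 11.99 and 4.71 CPM at St15 and 881 to 971 CPM at St7. dap, an inhibitor of cyclin E with Cdk2, was the member highest in its change, with a mean of 105 ± 14.1 CPM at St15 and 20.1 ± 2.703 CPM at St7, and was not called.

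Of other abundant St7 transcripts, kuk, which encodes a protein of the nuclear envelope, had 66.3, 91.8 and 57.7 CPM at St15 and 3563 to 4350.0 CPM at St7 (log2 fold change -5.46 ± 0.17, adjusted p = 1.31e-11, edgeR). HmgD, a high mobility group chromatin protein, had 497, 428 and 440.0 CPM at St15 and 4111 to 4943 CPM at St7, and Df31, a chromatin decondensation factor, 482, 506 and 439 CPM at St15 and 3421 to 4831 CPM at St7. The last pair fell just short of 8-fold with TMM scaling, at log2 fold changes of -2.97 and -2.85, and passed it with library size as the only scaling, at -3.31 and -3.18.

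Of 29 tested genes known for RNA laid down by the mother, 10 were called lower and 1 higher. Over all genes tested, 12.5% were called lower and 28.1% higher. Of the 19 free of overlap, 5 were called lower and 1 higher. plu, a regulator of the first nuclear divisions, had 3 counts in all at St15 and 17.4 to 36.1 CPM at St7. wisp, a poly(A) polymerase of egg activation, had 0.191, 0.841 and 0.362 CPM at St15 and 28.6, 43.7 and 71.2 CPM (lowest, median, highest) at St7. The germ plasm gene osk, which shares exonic bases with another gene, was already low at gastrulation, at 4.88 to 8.82 CPM, and had 0.238, 0.368 and 0.672 CPM at St15. tud, another germ plasm gene, was the one called higher, with 504, 441 and 448 CPM at St15 and 55.01 to 79.8 CPM at St7, but its log2 fold change was 3.11 with TMM scaling and 2.77 with library size as the only scaling.

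**Figure D3:**
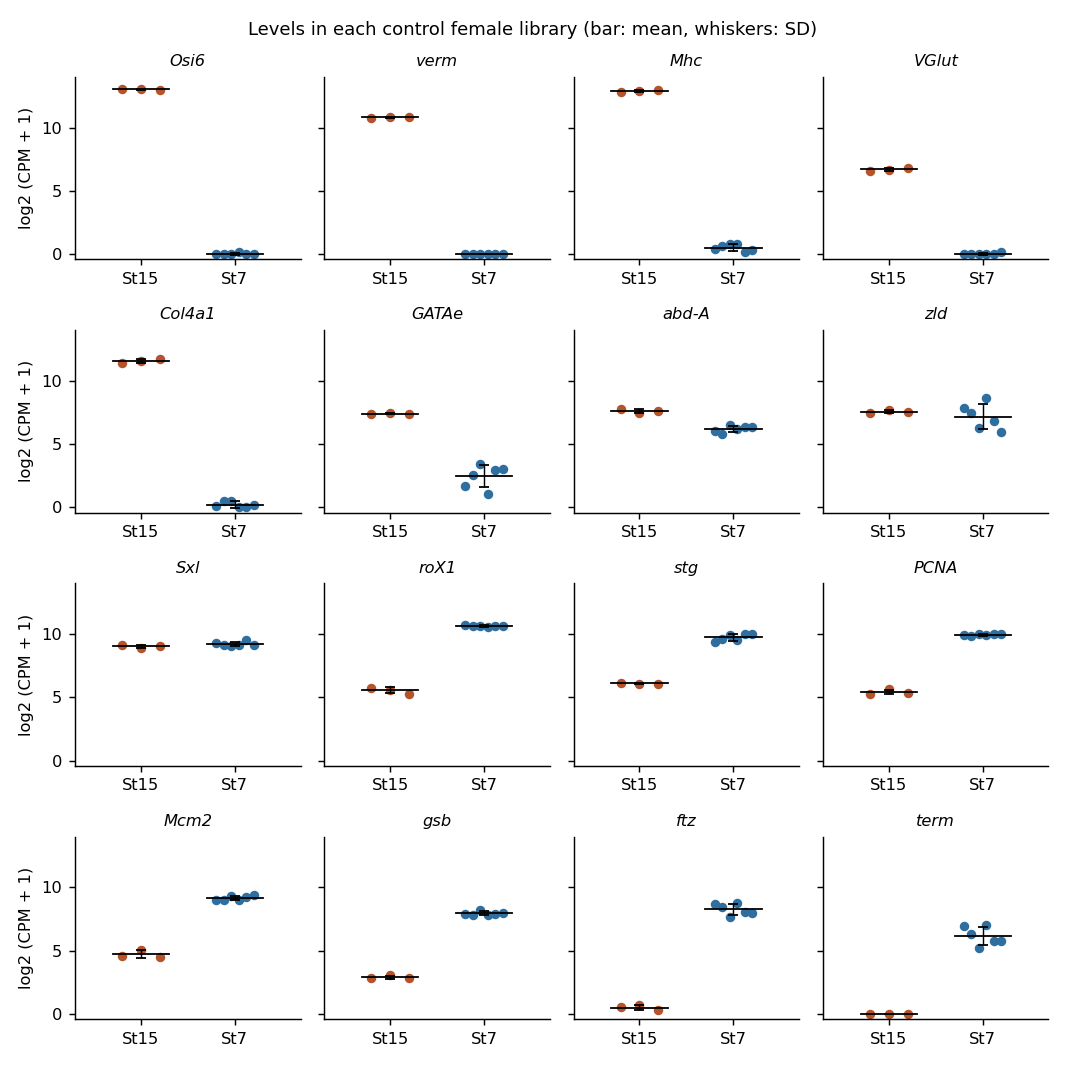
Level of 16 genes in each control female library, as log2 (CPM + 1), with St15 pools on the left and St7 embryos on the right of each panel, bars at the mean and whiskers of 1 SD. The top row (Osi6, verm, Mhc, VGlut) stands at or near 0 in every St7 embryo, ftz and term stand near 0 in every St15 pool, and zld spans 61.2 to 400.2 CPM among the St7 embryos.

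Housekeeping gene groups showed few large changes. Of 82 cytoplasmic ribosomal protein genes 1 was called, RpS5b, which fell to 70.2 ± 12.9 CPM at St15 against 1094 ± 114 CPM at St7. The list's median log2 change was 0.79, and its summed level was 109101 to 122384 CPM at St15 and 83212 to 100414 CPM at St7. Of 70 oxidative phosphorylation genes 2 were called, both lower (COX5BL and COX7AL), and the median was -0.03. Among 14 cell death genes, Buffy and skl were called higher and Dcp-1, an effector caspase, lower, at log2 -3.10 (-2.95 in DESeq2). Dcp-1 shares exonic bases with other genes. These calls are no more than the 28.1% and 12.5% of all genes tested that were called higher and lower.

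The mitochondrial genome did not move as one. The large mitochondrial ribosomal RNA, mt:lrRNA, was the most counted gene at St15, with 28101, 21161 and 31122 CPM in the St15 pools and 198, 281 and 419 CPM (lowest, median, highest) in the St7 embryos. That is a log2 fold change of 6.86 ± 0.23 (adjusted p = 2.87e-10, edgeR). Replicate 3 was the lowest of the pools in mt:lrRNA and mt:ND5. mt:ND5, a subunit of complex I, was called higher, with 542, 351 and 685 CPM at St15 and 27.8 to 77.4 CPM at St7, and mt:ATPase8, which overlaps mt:ATPase6, was called lower. mt:CoI was counted about equally at 4295 ± 924 CPM at St15 and 4149 ± 351 CPM at St7. The 13 mitochondrial protein genes together took 1.22 ± 0.311% of counts at St15 and 1.72 ± 0.175% at St7 (SD, n = 3 and 6). With mt:lrRNA and the other mitochondrial genes included, the order turned, by 2.14 percentage points in favour of St15. The difference for the protein genes had a two-sided exact permutation p of 0.0238, the smallest that 84 splits allow, and its size was -0.50 percentage points with all libraries and -0.327 without the St15 replicate 3.

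Per length, which allows levels of different genes to be set side by side, Act57B led the protein-coding genes at St15 at 6353 CPM per kb of exon, followed by RpL41 at 5722 and Osi6 at 4526. At St7 these 3 had 0.102, 2877 and 0.0103 CPM per kb. Among the nuclear genes leading at St7 were CG13427, RpS3A at 1862 CPM per kb at St15 and 4169 at St7, RpLP2 at 2749 and 3680.3, and alphaTub84B at 1194 and 3577. Ribosomal protein genes thus stood among the leaders at both stages, beside a muscle and a cuticle gene at St15. The 100 genes with most counts in each library took 26.0 ± 0.215% of counts at St15 and 23.8 ± 0.389% at St7 (SD, n = 3 and 6; two-sided exact permutation p = 0.0238, the smallest possible; 0.0238 after adjustment over the 3 library values tested).

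The genes that moved also differed in build. Among protein-coding genes free of overlap, the 2143 called higher spanned a median of 4569 bases of genome, the 490 called lower 1590 bases and all 5877 tested 3049 bases. Median exonic length was 2413 bases in genes called higher and 1450.5 in genes called lower. Genes of a single exon made up 8.17% of those called higher, 27.6% of those called lower and 9.94% of all tested. Of the protein-coding genes free of overlap, 413 were at 50 CPM or more at St15 and under 1 CPM at St7, while 13 were at 50 CPM or more at St7 and under 1 CPM at St15.

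Sex determination and dosage genes were mostly lower without large change. Females of this species keep dosage compensation off: Sxl, the master switch, blocks production of the MSL-2 protein, which males need to raise the output of their single X. Sxl had 561, 484 and 529 CPM at St15 and 545, 572 and 735 CPM (lowest, median, highest) at St7, overlapping between the groups. msl-2 had 13.4, 10.99 and 12.4 CPM at St15 and 43.6 to 61.4 CPM at St7 (log2 fold change -1.69 ± 0.16), mof had 10.97, 11.2 and 11.2 CPM at St15 and 27.7 to 48.4 CPM at St7 (log2 fold change -1.43 ± 0.19), and tra had 13.4, 12.04 and 9.72 CPM at St15 and 16.8 to 25.3 CPM at St7. None of these reached 8-fold, and all 4 share exonic bases with other genes. Sxl, msl-2 and tra also served to sex the St7 embryos. Of 23 genes of the list, 3 were called lower (roX1, sisA and sc) and none higher, close to the 12.5% of all genes tested that were called lower.

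roX1, a noncoding RNA of the MSL complex, had the highest level of the 3 at St7 (dm6 chromosome X, 3857230 to 3862697). It had 52.8, 47.8 and 38.6 CPM in St15 females and 1498, 1599 and 1705 CPM (lowest, median, highest) in St7 females, a log2 fold change of -4.77 ± 0.11 (adjusted p = 9.66e-13, edgeR). The groups were far apart, and the gene shares exonic bases with ec. In control males it averaged 871 ± 23.2 CPM at St15 and 1143 ± 266 CPM at St7 (SD, n = 3 and 7). roX2, its partner RNA, stayed at 1.26 to 2.15 CPM in St15 females and 0.359 to 1.86 CPM in St7 females.

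The ratio of counts on the X chromosome to counts on the autosomes was higher at St15. Its log2 was -2.42 ± 0.0126 in St15 females and -2.56 ± 0.0261 in St7 females (SD, n = 3 and 6), a difference of 0.14 with no overlap (two-sided exact permutation p = 0.0238, the smallest possible). Without the genes called in the stage comparison the difference was 0.12. In control males the log2 ratio was -2.52 ± 0.00502 at St15 and -2.83 ± 0.0509 at St7 (SD, n = 3 and 7), also with no overlap.

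Most stage calls were shared with control males, where stage, pooling and table differ in the same way. Of 2902 genes called higher in females and tested in both sexes, 2785 were called higher in males too, which is 96.0% of the female and 97.4% of the male calls. For genes called lower it was 1174 of 1290, or 91.0% of the female and 95.4% of the male calls, and no gene was called in opposite directions. Across the 10393 genes tested in both sexes, log2 fold changes correlated with Pearson's r = 0.988, as a description across genes, which are not replicates. The male and female comparisons share no library.

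The difference between the sexes in the stage change was tested in the 16 control libraries. Of 10810 genes, 137 passed an adjusted p of 0.05 (1.27%, edgeR's quasi-likelihood interaction test): 13 (0.12%) had a higher and 124 (1.15%) a lower stage change in females than in males. Of the 124, 119 lie on the X, among 1732 X-linked genes tested. The median difference, females minus males, was -0.35 over X-linked genes and 0.01 over autosomal genes, and 73.8% of X-linked and 47.6% of autosomal genes had a difference below 0. Among genes free of overlap, 65 of the 68 with a lower stage change in females lie on the X, where the median difference was -0.34. The number that passed was unstable: with 1 library left out it ran from 1 to 20 higher and from 27 to 169 lower genes. The lower count was 53, 69 and 34 without the St15 female replicates 2, 3 and 4, and 53 and 27 without the St15 male replicates 1 and 2.

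roX1 led the list with a difference of -4.77 ± 0.22 (SE; adjusted p = 2.33e-11, edgeR). XRCC1, a DNA repair gene on the X and free of overlap, had 1.81, 2.103 and 1.603 CPM in St15 females and 87.97 to 108 CPM in St7 females, and averaged 5.97 ± 1.24 CPM in St15 males and 56.9 ± 8.39 CPM in St7 males. Its log2 fold change was -5.40 ± 0.13 in females and -2.89 ± 0.17 in males (adjusted p of the difference = 2.69e-06, edgeR). The fall was thus steeper in females. APC4, a subunit of the ubiquitin ligase that ends mitosis, had log2 fold changes of -3.21 ± 0.12 in females and -1.96 ± 0.17 in males, and PIG-T, of the GPI anchor transamidase, -3.20 ± 0.10 and -2.41 ± 0.10. Ns3, a nucleolar-type GTPase gene with a smaller stage change, passed as well, with -1.05 ± 0.08 in females and -0.21 ± 0.10 in males. These X-linked genes, like roX1, had higher means in females than in males at St7, and their levels at St15 were closer or lower in females. APC4 averaged 52.1 ± 2.23 CPM in St7 females and 29.9 ± 3.75 CPM in St7 males, against 4.48 ± 0.284 and 5.94 ± 0.542 CPM at St15.

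**Figure D4:**
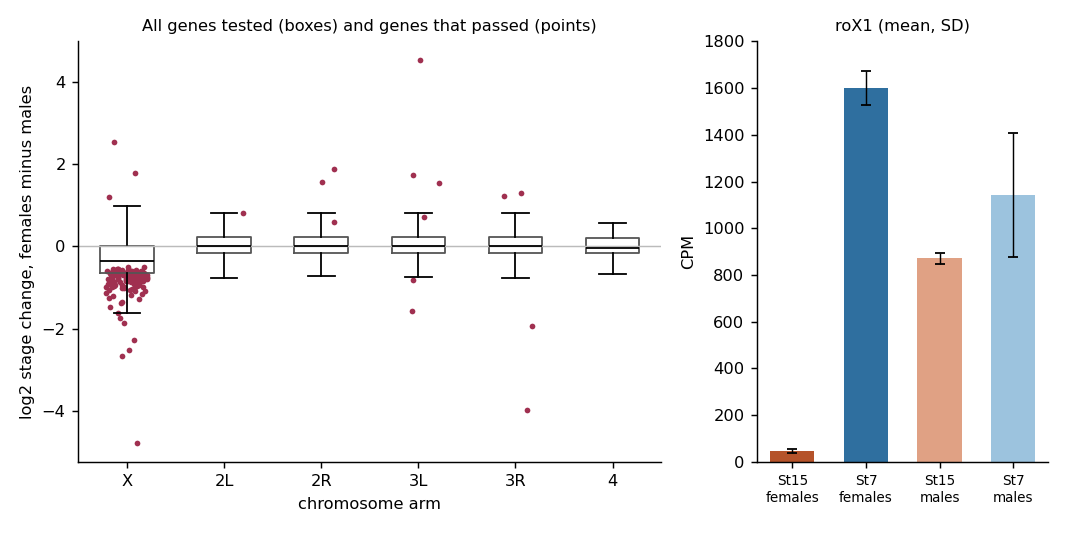
Left, log2 stage change (St15 over St7) in control females minus that in control males, by chromosome arm: boxes give the quartiles of all genes tested, whiskers reach 1.5 box heights and points are the 137 genes that passed. Right, roX1 in CPM (mean and SD) in the 4 control groups. The X box is centred at -0.35 and the autosomal boxes near 0, and roX1 is low in St15 females alone.

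Single embryos varied more than pools. Among 3732 genes with at least 20 CPM at both stages, the median SD of log2 (CPM + 1) was 0.0709 among the 3 St15 pools and 0.156 among the 6 St7 embryos, and 0 and 14 of these genes had an SD over 1. With the St15 counts thinned to the St7 depth the St15 median was 0.0803. The biological coefficient of variation estimated by edgeR was 0.116 at St15, also on the thinned counts, and 0.179 at St7.

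The genes that varied most among St7 embryos include signalling and patterning genes. CCHa2, a peptide hormone gene, had 7.77, 8.26 and 8.12 CPM in the St15 pools and 0, 135 and 272 CPM (lowest, median, highest) in the St7 embryos, where a single embryo had no count and the others over 100 CPM. It was called lower at St15 although the groups overlapped (adjusted p = 0.0117, edgeR). Thor, the translation inhibitor 4E-BP, had 631, 817 and 618 CPM at St15 and 18.3, 43.6 and 208 CPM at St7, with every pool above every embryo (log2 fold change 3.52 ± 0.64, adjusted p = 0.000518, edgeR; 4.12 without the St7 replicate 5). Neither CCHa2 nor Thor passed when the fold of 8 was itself tested (adjusted p = 0.223 and 0.212, edgeR's glmTreat). Among the other named genes that were called, Dcp-1, Tl, gt, hkb, nerfin-1, pb and tud did not pass it either (adjusted p from 0.111 to 0.462, edgeR's glmTreat). E(spl)mgamma-HLH, a Notch target, had 8.25, 25.1 and 7.19 CPM at St15 and 8.91 to 115 CPM at St7. The X-linked chromatin genes Ing3 and Bap111 had 10.97, 10.9 and 10.3 and 56.2, 52.5 and 51.6 CPM at St15, and at St7 they ranged over 3.73 to 85.2 and 4.503 to 113 CPM. zld, the pioneer factor of genome activation, had 173, 206 and 187 CPM at St15 and 61.2, 146 and 400.2 CPM at St7, so the groups overlapped.

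**Figure D5:**
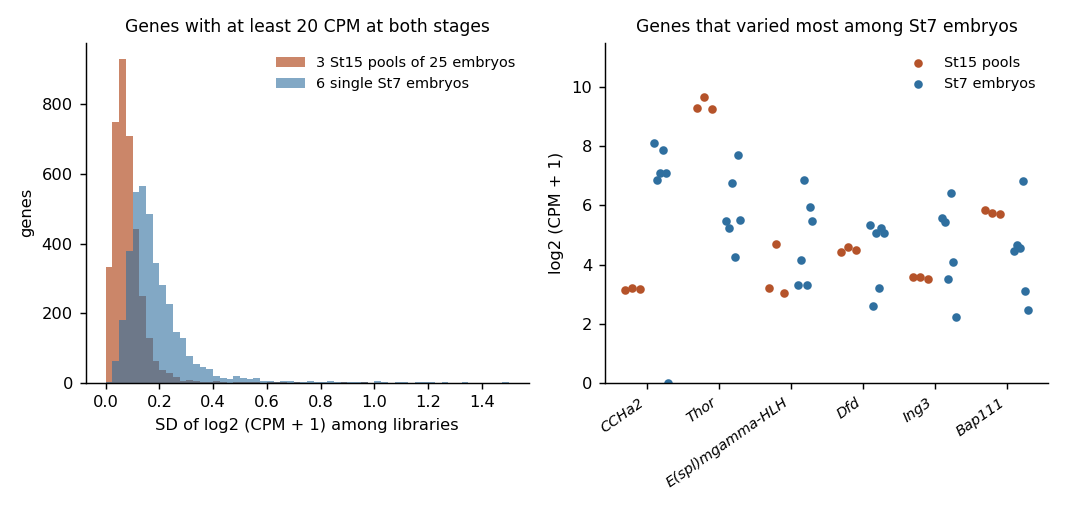
Left, number of genes (of 3732 with at least 20 CPM at both stages) by SD of log2 (CPM + 1) among libraries, for the St15 pools and the St7 embryos. Right, level in each library, as log2 (CPM + 1), of 6 genes that varied most among the St7 embryos, with St15 pools on the left of each pair. The St15 distribution centres at 0.0709 and the St7 distribution at 0.156, and 1 St7 embryo has no CCHa2 count.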

How the data were processed

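PolyA RNA of female control embryos was measured with a stranded mRNA kit, per the labels' protocols. The authors deposited 1 table of raw counts per gene for each stage, on genome build dm6 per the submitters' processing notes. Which aligner, counter and annotation release were used, and whether counting used strand, is not given in the sources used here. The St15 and St7 tables were joined by FlyBase gene ID, and 17252 of 17558 IDs were matched to Ensembl release 115 for symbols, positions and exons. The depth was 19018190 to 20965145 counts per library at St15 and 7772523 to 9560631 at St7.

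The St15 and St7 control female counts were fitted together with edgeR 4.0.16 (TMM, filterByExpr, robust quasi-likelihood) in R 4.3.3, with p-values adjusted by Benjamini-Hochberg over all 10511 genes tested. A gene was called at an adjusted p under 0.05 and a log2 fold change of at least 3 in size. The difference between females and males was an interaction term over the 16 control libraries. Library shares were compared by exact permutation. DESeq2 1.42.0 was an alternative. The fits were tested on simulated data. Where a group had no count, it was set to a floor of 3 counts over the group, and such limits cover counting error only. p-values measure the spread between these libraries, which for the pools may be technical.

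Same-numbered St15 and St7 libraries were not tied by any label. The St5 and cell line tables were not used here. Members and lists were chosen with earlier results of these data known. Genes were named by size of change, list, abundance, spread or interaction p, by a written rule: up to 15 genes each way with a mean of at least 50 CPM in the higher group, up to 4 called members of a list each way, 10 most counted genes at each stage, 10 most variable at St7 among those with at least 20 CPM, 10 interaction genes, Sxl, msl-2, mof, tra, roX1, roX2 and the cell type markers. As most of the largest falls were antisense RNAs, falls of protein-coding genes free of overlap (CG13427, CG4440, Sr-CII, Septin5, halo and borr) were added after their values were seen. So were Abd-B, Antp, BomS1, Cyp18a1, Cyp304a1, Cyp310a1, GstE14, Kr, Lac, LanA, Lsp2, Mcm2, Mef2, PCNA, RpL41, RpLP2, Tl, TpnC47D, Tsp42El, Ugt36D1, abd-A, beat-IIIc, dap, dpp, en, hry, kkv, kuk, lab, osk, spz, stg, tra2, zld, bnk, nullo and Sry-alpha.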

Additional observations from a re-analysis of the deposited data

Results flagged for a closer look

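Library flags were looked for in 134 sets of 6 values, the St7 control females, where chance flags about 1 in 20. A single embryo stood apart from the other 5 in 11 genes. Embryo 4 was the highest in APC4 (56.6 CPM), Bap111 (113 CPM), Caf1-105 (505 CPM) and Lac (2238 CPM), and the lowest in Df31 (3421 CPM). Embryo 6 was the lowest in Abl (5.02 CPM) and the highest in Cyp304a1 (3.99 CPM). Embryo 5 was the highest in Atpalpha (93.5 CPM), embryo 3 in gsb (296 CPM) and embryo 2 in mt:CoI (4848 CPM), while embryo 1 was the lowest in Ns3 (89.5 CPM). In the genes called among these, the St15 pools remained outside the range of the St7 embryos.

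The stage change differed between females and males, by the interaction test, in 6 genes named here. The log2 difference, females minus males, was -4.77 for roX1, -2.53 for XRCC1, -0.85 for Ns3, -1.26 for APC4 and -0.80 for PIG-T, all X-linked. It was -2.67 for roX2, which averaged 1.64 ± 0.458 CPM in St15 females and 0.951 ± 0.550 CPM in St7 females, against 38.5 ± 0.857 CPM in St15 males and 3.68 ± 1.24 CPM in St7 males (SD).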

How the results depend on the processing

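Of 170 genes named here, none turned its direction and 159 kept their call in those of 22 alternatives of the stage comparison in which they were fitted. This was all 22 for 122 genes and at least 17 for the others, since genes that share exonic bases, or are too low, drop out of some. Leaving out 1 library moved the log2 fold change of 37 of them by over 1.5 times in fold, mostly genes averaging under 1 CPM in 1 group. Asking for a mean of at least 10 CPM gave 1616 higher and 697 lower genes. Refitting only genes free of overlap, an alternative chosen after seeing the data, gave 660 lower, a 4-fold limit 2157 and a 16-fold limit 861. Leaving out 1 library gave 2952 to 3008 higher and 1276 to 1347 lower. DESeq2, other scalings, no filter, thinning, more libraries in the fit, a test of the fold and no robust option stayed within 1.5 times. The median of all genes tested was 0.41 with DESeq2 and -0.07 with library size only.

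The difference between the sexes was the least stable. DESeq2 gave 73 higher and 223 lower genes, genes free of overlap alone 3 and 51, library size only 73 lower, and leaving out 1 library 1 to 20 higher and 27 to 169 lower. With a replicate block it was 2 and 46, and for the stage comparison 2980 and 1302, but no label pairs the numbers, and same-numbered libraries of the stages correlated at 0.0204 to 0.0352. Over 1000 genes in place of 100 the share of the most counted genes turned to -1.27 percentage points, and with all mitochondrial genes that share turned to 2.14. With 1 library left out, the X ratio differed by 0.131 to 0.147 (log2), the mitochondrial share by -0.627 to -0.327 and the share of the 100 genes by 2.03 to 2.26. Without a St15 pool these 3 could not pass, as the smallest p was then 0.0714. The cause of these shifts was not tested. The description of promoter letters was not run.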

Other observations

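Several gene families that the lists above do not cover were counted by the start of their symbols, a choice made after their values were seen. Each count stands beside 28.1% of all genes tested called higher and 12.5% called lower. Of 34 tetraspanin genes, which encode membrane proteins that cross the membrane repeatedly, 30 were tested, 23 were called higher and none lower. Together they had 1888 to 2007 CPM in the St15 libraries and 697 to 822 CPM in the St7 libraries, and Tsp42El had 59.7, 75.3 and 66.2 CPM at St15 and no count at St7. Of 14 beat genes, cell surface proteins that guide motor axons and bind the side proteins, 13 were tested and 12 called higher. beat-IIIc, the exception, had 82.1, 65.3 and 82.2 CPM at St15 and 83.8, 106 and 132 CPM (lowest, median, highest) at St7.

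Of 35 Ugt genes, which encode enzymes that attach sugars to small molecules, 25 were tested. Of these, 22 were called higher and none lower, against 28.1% and 12.5% of all genes tested. The family summed to 733 to 777 CPM at St15 and 133 to 161 CPM at St7. Ugt36D1 averaged 101 ± 10.8 CPM at St15 and 0.167 ± 0.178 CPM at St7 (SD, n = 3 and 6). Cytochrome P450 genes with symbols in Cyp went mostly up: of 55 tested, 35 were called higher and 3 lower, against 28.1% and 12.5% of all genes tested. Cyp304a1 had 207, 274 and 239 CPM at St15 and 0 to 3.99 CPM at St7. Cyp310a1 went the other way, with 9.59, 5.47 and 6.31 CPM at St15 and 119 to 264 CPM at St7. Glutathione S-transferase genes gave 12 higher and 3 lower calls of 32 tested, near the 28.1% and 12.5% of all genes tested. GstE14, which takes part in hormone synthesis from sterols, was among the lower ones, with 0.0954, 0.0526 and 0.0517 CPM at St15 and 10.97 to 20.7 CPM at St7. In the E(spl) group of Notch targets on chromosome 3R, 2 of 11 genes were called higher, against 28.1% of all genes tested. E(spl)m3-HLH had 26.1, 23.98 and 27.04 CPM at St15 and 0 to 0.901 CPM at St7.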
